A study of Mus musculus with 15 samples.

Results

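The interferon regulatory factor (IRF) family of transcription factors was followed in mouse leukemic bone marrow through 8 genes, Irf1, Irf2, Irf3, Irf4, Irf5, Irf7, Irf8 and Irf9. They were taken by gene symbol, whatever their values, and all 8 were found among the 18075 genes of the untreated tables, the 17775 genes of the table that holds 36N with temozolomide and without it and the 19035 genes of the table of temozolomide libraries. Messenger RNA was sequenced from 15 libraries in 5 groups of 3. Every donor carried a modified Gfi1 locus with the human GFI1 gene, whose product is a zinc finger repressor that acts in blood cells. The groups KD (genotype GFI1 KD /KD, libraries 7 to 9, in which 10 to 20% of GFI1 is expressed), 36N (GFI1 36N /36N, libraries 4 to 6, the 36N variant) and 36S (GFI1 KI /KI, libraries 1 to 3, the reference form) were untreated. The groups 36N TMZ (libraries 4 to 6) and 36S TMZ (libraries 1 to 3) were marrow cells of the same genotypes exposed to temozolomide, an alkylating drug, at 50 µg/ml for 20 h before RNA was isolated. In all groups lineage-depleted cells had received the MLL-AF9 fusion oncogene with GFP from a retrovirus, had been sorted for GFP and had been placed into lethally irradiated (7 and 3 Gy) C57BL/6 mice. The leukemias were then passed on through recipients given 3 Gy, and total marrow of the quaternary recipients was sequenced, so host cells could be present. Whether the mice of a group shared a primary leukemia is not given, so p-values cover no more than the spread of these samples, which may be less than that between leukemias.

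IRF proteins bind GAAA repeats in interferon-stimulated response elements. Irf8 and Irf4 are lineage factors that act with ETS partners such as PU.1: Irf8 directs myeloid progenitors towards monocytes and dendritic cells and away from granulocytes, and Irf4 acts in B cells, plasma cells and some dendritic and myeloid cells. Irf3, Irf5 and Irf7 are activated by kinases downstream of Toll-like receptors and nucleic acid sensors and switch on interferon and cytokine genes, whereas Irf9 acts in the interferon-induced complex ISGF3. Irf1 is an activator induced by interferon gamma, and Irf2 competes with it for the same sites.

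Promoter windows of 250 bases before the RefSeq start sites (GRCm38.p6) were found for all 8 genes, 11 windows in all, and were searched on both strands for 4 motifs. These were GAAA followed after any 2 bases by GAAA (the core of the interferon-stimulated response element), GGAA followed after any 2 bases by GAAA (an ETS-IRF composite element, which can overlap that core), TTCNNNGAA (a gamma-activated sequence, the binding site of STAT dimers) and AAATCAC (the core bound by GFI1). Of 32851 windows of this length in the RefSeq table, 2.98%, 2.3%, 7.02% and 2.75% held these motifs in that order. The windows that held any match belonged to Irf8, Irf1 and Irf2, and they are shown for that reason. Capitals mark the matches.
Irf8 (chr8:120736108-120736357, plus strand): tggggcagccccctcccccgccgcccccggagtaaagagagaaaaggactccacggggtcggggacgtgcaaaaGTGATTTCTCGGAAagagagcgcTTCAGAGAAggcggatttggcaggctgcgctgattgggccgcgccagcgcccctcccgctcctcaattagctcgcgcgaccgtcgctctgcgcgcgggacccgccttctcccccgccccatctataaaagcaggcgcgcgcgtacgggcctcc
Irf1 (chr11:53769764-53770013, plus strand): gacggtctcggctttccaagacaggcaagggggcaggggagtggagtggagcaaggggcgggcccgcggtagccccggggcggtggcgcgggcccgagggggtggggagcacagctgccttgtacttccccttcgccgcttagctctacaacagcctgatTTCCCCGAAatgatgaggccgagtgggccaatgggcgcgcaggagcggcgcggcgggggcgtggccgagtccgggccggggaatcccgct
Irf2 (chr8:46739495-46739744, plus strand): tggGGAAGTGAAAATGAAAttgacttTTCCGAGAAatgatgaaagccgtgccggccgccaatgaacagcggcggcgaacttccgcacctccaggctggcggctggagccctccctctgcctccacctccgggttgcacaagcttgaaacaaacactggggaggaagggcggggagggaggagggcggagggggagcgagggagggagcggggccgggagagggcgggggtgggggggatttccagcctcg
The Irf8 window held GTGATTT, the GFI1 core on the opposite strand, at base -176 from the start site, overlapping the gamma-activated sequence TTCTCGGAA at -171, and TTCAGAGAA at -153. The Irf1 window held TTCCCCGAA at -90. The Irf2 window held GGAAGTGAAA at -247 and GAAAATGAAA at -241, which overlap, and TTCCGAGAA at -224. No match was found in the windows of Irf3, Irf4, Irf5, Irf7 and Irf9 or in a downstream window each of Irf1 and Irf8. A match describes letters and was not tested as a binding site.

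Values are normalized counts, and column totals lay between 11270000 and 24260000. The untreated libraries shared a scale, while the temozolomide tables had been normalized separately, and levels were compared within a scale only. In 2 temozolomide libraries, 36N TMZ 5 and 36S TMZ 2, the Y-linked gene Ddx3y was at 0, although untreated 36N library 5 and 36S library 2 had 649 and 551 normalized counts. The temozolomide libraries also deviated from their group means in pairs across genotypes (correlation over 14246 genes 0.39 for 36N TMZ 4 with 36S TMZ 1, 0.45 for 5 with 2 and 0.35 for 6 with 3, and -0.24 to -0.12 for all other pairs). Vill, a villin-like gene, stood at 1118 to 1509 in untreated 36N and 1.36 to 54.5 in untreated 36S, but at 670 to 1004 in 36N TMZ and 511 to 746 in 36S TMZ. The temozolomide libraries thus did not show the genotype difference of the untreated ones at this gene, and whether their labels hold was not tested further. Mouse Gfi1 was read in 1 table, at 723, 504 and 555 in 36N TMZ, against 505, 565 and 367 in 36N, and since all donors carried the human gene, these reads do not check the alleles. Its level in KD was not analysed here. Several IRF genes overlap other gene models (Irf8 lies within the read-through model Gm20388 over 20337 bases, Irf3 overlaps Bcl2l12 over 1065 and Irf5 overlaps Tnpo3 over 1045), and since strand use in counting is not given, reads in these stretches could come from either gene.

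Of the untreated differences, that of Irf8 between KD and 36S had the lowest p-value, and Irf8 was highest in KD, intermediate in 36N and lowest in 36S. In KD against 36S, 4 IRF genes rose (Irf5, Irf7, Irf8 and Irf9) and none passed the test downward, while in 36N against 36S Irf8 alone rose. In KD against 36N, Irf4 alone passed, and it was lower in KD. Of the 8 genes, 4 called higher in KD over 36S compare with 6.61% of all 13109 genes tested (4.86% called lower and 11.5% in either direction), 1 called higher in 36N over 36S with 2.55% of 13137 genes (2.01% called lower and 4.56% in either direction), and 1 called lower in KD against 36N with 1.21% of 13118 genes (2.03% called higher and 3.24% in either direction). The values of KD and 36S did not overlap for 7 of the 8 genes, against 31.5% of all genes. They did not overlap for 2 genes in 36N and 36S, against 26.9%, or for 6 genes in KD and 36N, against 22.6%. The median log2 fold change of the 8 genes was 0.62 for KD over 36S, 0.20 for 36N over 36S and 0.30 for KD over 36N, and that of all genes lay at -0.01 in each. KD and 36N were set against the same 36S libraries, so these results are not independent. In this bulk RNA, more cells of a type and more RNA per cell cannot be told apart.

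Irf8 (mm10 chromosome 8, 120736358 to 120756694, plus strand) had 6605, 6669 and 6645 normalized counts in the KD libraries, 5004, 5109 and 4915 in the 36N libraries and 2538, 3334 and 3022 in the 36S libraries. The 3 groups did not overlap, and the KD libraries differed among themselves by less than those of either other group. KD averaged 6640 ± 32.5 against 2965 ± 401 in 36S (SD, n = 3 each), 2.24-fold higher (1.17 as a log2 fold change with SE 0.14, adjusted p = 0.0010). In 36N the mean of 5009 ± 97.3 was 1.69-fold that of 36S (log2 fold change 0.77, SE 0.12, adjusted p = 0.0084). Both calls held in each of 12 alternatives, leaving out any library included, with adjusted p at most 0.0083 for KD and 0.046 for 36N. KD over 36N came to 1.33-fold (log2 fold change 0.41, 95% interval 0.13 to 0.69), which did not pass after adjustment (adjusted p = 0.12) except without KD library 8 (0.40, adjusted p = 0.027).

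Irf4 (chromosome 13, 30749226 to 30766976, plus strand) followed another order, with 40.3, 72.0 and 53.1 in KD, 115, 146 and 149 in 36N and 86.0, 108 and 123 in 36S. All KD values lay below those of both other groups, and 36N and 36S overlapped. Irf4 in KD was 2.48-fold lower than in 36N (log2 fold change -1.32, SE 0.27, adjusted p = 0.028). This call was lost without 36N library 4 (-1.44, adjusted p = 0.057), 5 (-1.27, adjusted p = 0.13) or 6 (-1.26, adjusted p = 0.079) and without KD library 7 (-1.12, adjusted p = 0.084) or 9 (-1.32, adjusted p = 0.12). Against 36S the difference of -0.95 (95% interval -1.57 to -0.32) did not pass (adjusted p = 0.058), except without KD library 8 (-1.16, adjusted p = 0.025). With Irf8 and Irf4 set against each other within a library, as a ratio of normalized counts, Irf8 exceeded Irf4 by 92.6 to 164 times in KD, 33.0 to 43.6 times in 36N and 24.6 to 31.0 times in 36S.

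**Figure D1:**
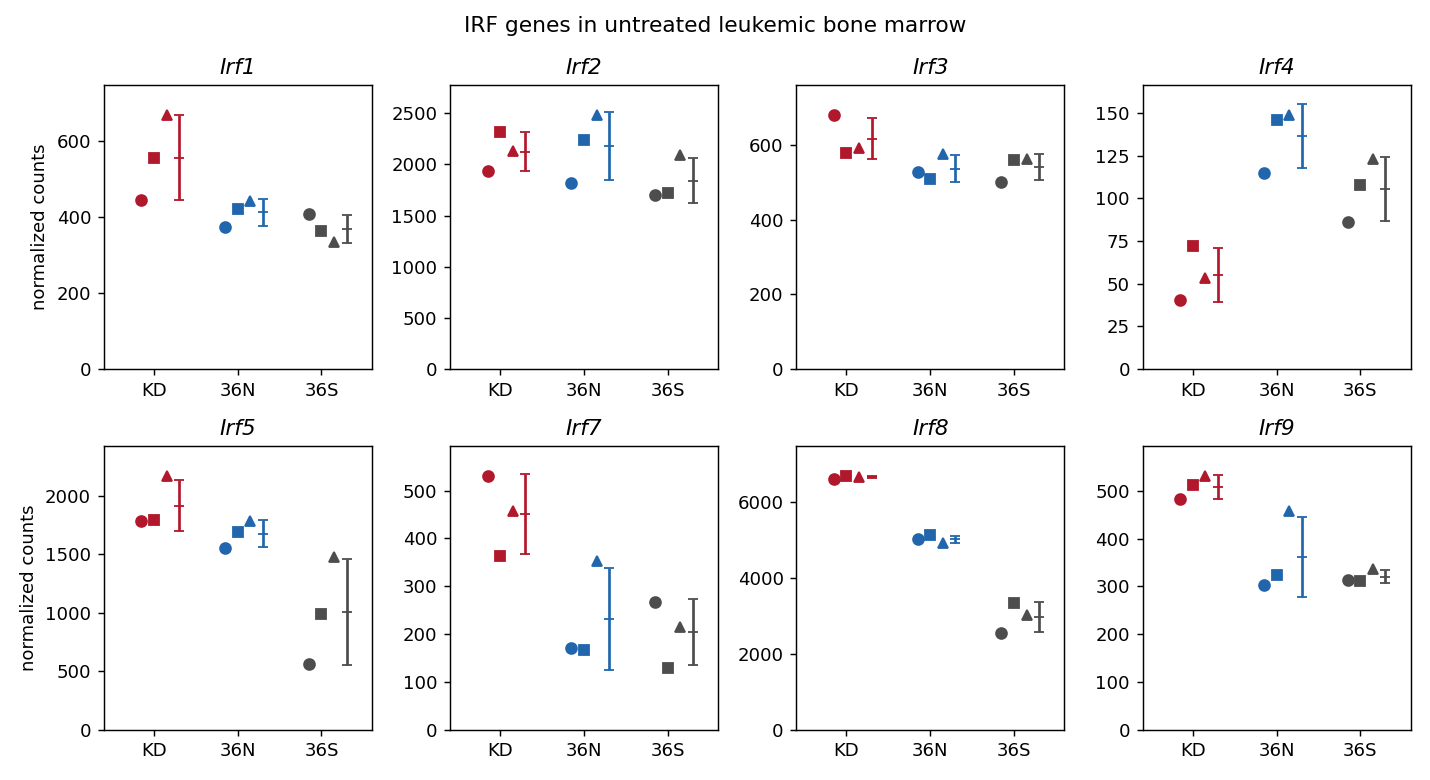
Normalized counts (vertical axes, from 0) of the 8 IRF genes in untreated KD, 36N and 36S marrow. Each point is a library, in the order of library numbers, and the bar beside it gives mean ± SD (n = 3). Irf8 falls into 3 separate levels, Irf4 is lowest in KD, and Irf5 in 36S spreads from 564 to 1472.

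Among the genes downstream of Toll-like receptors and sensors, Irf5 (chromosome 6, 29526625 to 29541871, plus strand) had 1784, 1793 and 2167 in KD, 1553, 1687 and 1786 in 36N and 564, 989 and 1472 in 36S. All KD and 36N values lay above all 36S values, and the 36S libraries were far apart from each other. KD rose over 36S by 1.90-fold (log2 fold change 1.02, SE 0.29, adjusted p = 0.049), a call that held in 4 of 12 alternatives. It was lost without 36S library 1 (0.66, adjusted p = 0.069) or 2 (1.06, adjusted p = 0.13) and without KD library 7 (1.07, adjusted p = 0.098), 8 (1.07, adjusted p = 0.062) or 9 (0.93, adjusted p = 0.18). It was also lost with equal library totals (0.90, adjusted p = 0.097), a scaling that moved the median of all genes to -0.13, with quantile normalization (adjusted p = 0.066) and with a pseudocount of 0.5 (adjusted p = 0.051). In 36N the difference from 36S was 0.84 (95% interval 0.20 to 1.47, adjusted p = 0.14), and it passed only without 36S library 3 (1.16, adjusted p = 0.028). Library 1 of 36S, the lowest in Irf5 and in Irf8, also had the highest summed neutrophil markers of the untreated libraries (200937 normalized counts, against 107317 and 68628 in 36S libraries 2 and 3), and the part of these cells in the difference was not tested.

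Irf7 (chromosome 7, 141262706 to 141266481, minus strand), the amplifier of type I interferon responses, had 530, 364 and 457 in KD, 172, 166 and 354 in 36N and 268, 129 and 215 in 36S. All KD values were above those of the other groups, which overlapped each other. KD was 2.21-fold higher than 36S (1.18 as a log2 fold change with SE 0.26, adjusted p = 0.020). The call was lost without 36S library 2 (0.89, adjusted p = 0.061), KD library 7 (1.06, adjusted p = 0.071) or KD library 9 (1.16, adjusted p = 0.083). Against 36N the difference of 1.04 (95% interval 0.41 to 1.66) had an adjusted p of 0.082, and it passed without 36N library 6 (1.39, adjusted p = 0.0077), the highest of its group, or without KD library 8 (1.18, adjusted p = 0.039). Irf3 (chromosome 7, 44997648 to 45002848, plus strand), the constitutive partner of Irf7 in interferon beta induction, had 681, 579 and 593 in KD, 528, 509 and 577 in 36N and 502, 562 and 564 in 36S. Its KD values were slightly above all others, but no difference passed (KD over 36S 0.19, 95% interval -0.12 to 0.49; 36N over 36S -0.01, 95% interval -0.28 to 0.26).

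Irf9 (chromosome 14, 55603571 to 55610030, plus strand), the DNA-binding subunit of ISGF3, had 482, 512 and 531 in KD, 304, 325 and 458 in 36N and 314, 310 and 336 in 36S. The KD libraries were above all others, and the 36S libraries kept within a narrow range. KD was 1.59-fold higher than 36S (0.67 as a log2 fold change with SE 0.13, adjusted p = 0.013), a call lost without 36S library 2 (0.64, adjusted p = 0.077) or KD library 9 (0.63, adjusted p = 0.066). For 36N over 36S the difference was 0.15 (95% interval -0.24 to 0.54, adjusted p = 0.64), and for KD over 36N it was 0.51 (95% interval 0.11 to 0.91, adjusted p = 0.17). Irf1 (chromosome 11, 53770014 to 53778374, plus strand) had 445, 556 and 667 in KD, 373, 422 and 442 in 36N and 408, 362 and 335 in 36S. All KD values exceeded the others, yet KD over 36S did not pass (log2 fold change 0.58, 95% interval 0.18 to 0.97, adjusted p = 0.065), except without KD library 7 (0.73, adjusted p = 0.041). Irf2 (chromosome 8, 46739732 to 46847458, plus strand) had 1932, 2316 and 2131 in KD, 1821, 2235 and 2480 in 36N and 1705, 1722 and 2096 in 36S, with overlap between all groups. Its differences from 36S were 0.21 in KD (95% interval -0.10 to 0.52) and 0.24 in 36N (95% interval -0.08 to 0.56).

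**Figure D2:**
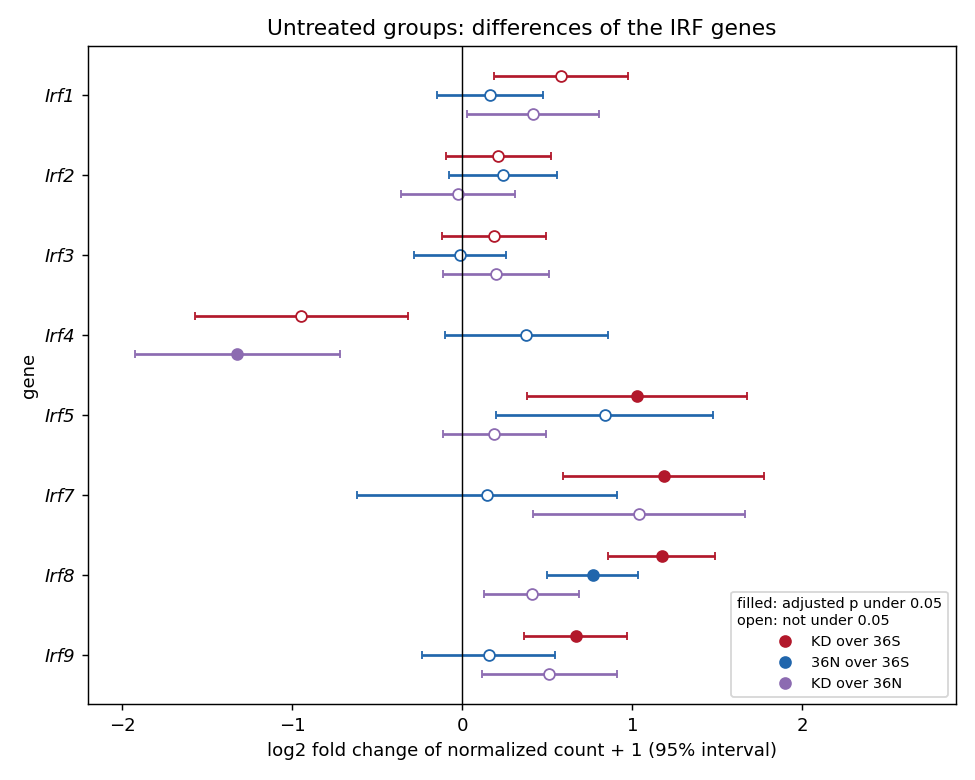
Log2 fold changes (horizontal axis) of the 8 IRF genes between untreated groups, with 95% intervals from the fits, for KD over 36S, 36N over 36S and KD over 36N. Filled points passed an adjusted p of 0.05: Irf5, Irf7, Irf8 and Irf9 in KD over 36S, Irf8 in 36N over 36S and Irf4 in KD over 36N.

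Genes around the family were read from lists. Of all genes tested, 6.61% rose and 4.86% fell in KD over 36S, which the counts of each list compare with. These shares were 2.55% and 2.01% in 36N over 36S, and 2.03% and 1.21% in KD over 36N. None of the 10 interferon ligand genes reached the level for testing in any comparison. Of the interferon receptors, JAK kinases and STAT factors, 3 of 11 tested rose in KD over 36S (Ifngr2 0.63, Jak2 0.61 and Ifnar2 0.59 on the log2 scale, adjusted p at most 0.027). Stat2, which encodes a partner of Irf9 in ISGF3, stood at 0.20 and did not pass (adjusted p = 0.65). Of 15 sensors, adaptors and kinases tested upstream of Irf3, Irf5 and Irf7, 2 fell, Ddx58, which encodes the RNA sensor RIG-I (82.4 ± 7.35 in KD, 154 ± 24.7 in 36S), and Tlr4, the receptor of bacterial lipopolysaccharide (77.0 ± 7.99 in KD, 141 ± 12.0 in 36S). Of 17 ISGF3 targets tested, 6 rose and 1 fell in KD. Ifit3, an antiviral effector, averaged 76.6 ± 14.7 in KD and 16.1 ± 4.74 in 36S (log2 fold change 2.20, adjusted p = 0.0034), and Oas2, an RNA-activated enzyme of the same response, 71.3 ± 29.1 in KD and 208 ± 33.7 in 36S (-1.59, adjusted p = 0.0087). Oasl1 (2.13, adjusted p = 0.015) and Mx1 (1.44, adjusted p = 0.0059) rose on that scale. The median over the 17 targets was 0.88. None of 15 targets of Irf1 and interferon gamma passed, with a median of 0.47 and the lowest p for Casp1 (0.55, adjusted p = 0.063) and Gbp2 (1.43, adjusted p = 0.075). In 36N over 36S no ISGF3 target and no Irf1 target passed (medians 0.07 and -0.03). The lowest p among ISGF3 targets were those of Mx1 (1.39, adjusted p = 0.054) and Cmpk2 (0.60, adjusted p = 0.15). Mx1 averaged 325 ± 181 in 36N, 314 ± 84.3 in KD and 114 ± 25.4 in 36S. Among Irf1 targets they were those of Nlrc5 (0.48, adjusted p = 0.24) and Tap1 (0.24, adjusted p = 0.31). Ifngr1, a chain of the interferon gamma receptor, fell by 0.49 on the log2 scale in 36N over 36S (adjusted p = 0.046). In KD over 36N, 1 of 17 ISGF3 targets rose (Zbp1, a nucleic acid sensor, 1.36, adjusted p = 0.034), as did Ifngr1 (0.67, adjusted p = 0.032).

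From a list of myeloid genes known to depend on Irf8, some were higher in both KD and 36N than in 36S. The action of Irf8 on these genes was not tested. In KD over 36S, 5 of 8 tested rose and in 36N over 36S 3 of 8, with medians of 0.96 and 0.54, and none fell in either. Of all genes, 6.61% rose in KD over 36S and 2.55% in 36N over 36S. Cybb, the catalytic subunit of the phagocyte NADPH oxidase, averaged 8191 ± 1054 in KD and 6754 ± 1026 in 36N, against 2414 ± 196 in 36S (log2 fold changes 1.76 and 1.48, adjusted p = 1.7e-04 and 7.5e-04). Klf4, a factor of monocyte differentiation, averaged 2351 ± 101 in KD and 1736 ± 321 in 36N, against 766 ± 258 in 36S (1.68 and 1.23, adjusted p = 0.0023 and 0.028). Mpeg1, a pore-forming protein of macrophages, rose by 1.31 in KD and 0.89 in 36N (adjusted p = 0.0063 and 0.047), and Ctss, which encodes cathepsin S, rose by 1.40 in KD (adjusted p = 0.0049) and stood at 0.60 in 36N (adjusted p = 0.092). In KD over 36N, Ctss rose (0.80, adjusted p = 0.044) and Nf1, a negative regulator of Ras, fell (-0.67, adjusted p = 0.029). Of 4 tested genes that Irf8 is known to repress, none passed the test downward. The nearest in KD over 36S was Bcl2l1, at 166 ± 6.00 in KD and 246 ± 26.5 in 36S (-0.56, adjusted p = 0.059). Asah1, acid ceramidase, rose in KD (0.71, adjusted p = 0.020), and Bcl2, an inhibitor of cell death, and Il17ra rose in 36N (0.80 and 0.57, adjusted p = 0.0050 and 0.034). Of the ETS and BATF partners of Irf4 and Irf8, none of 5 tested passed in KD over 36S and none of 6 in 36N over 36S, with Spi1, which encodes PU.1, at 0.43 in KD (adjusted p = 0.071) and 0.10 in 36N (adjusted p = 0.59).

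Markers of cell types differed between the untreated groups too, not all in the order of Irf8. Conventional dendritic cell markers summed to 655 to 919 normalized counts in KD, 1279 to 2387 in 36N and 422 to 1018 in 36S. Flt3, also on the list of MLL-AF9 leukemia markers, weighed most in this sum, at means of 614, 1710 and 489 in that order. Of 5 tested, Flt3 alone rose in 36N over 36S (1.94, adjusted p = 0.037) and alone fell in KD over 36N (-1.43, adjusted p = 0.012). In KD over 36S, Cd209a rose (2.34, adjusted p = 0.0048) and Cadm1 fell (-1.55, adjusted p = 0.034). Itgax averaged 42.5 in KD, 35.8 in 36N and 85.8 in 36S. Plasmacytoid dendritic ones overlapped in all groups (6304 to 9444 in KD, 6702 to 9066 in 36N, 5659 to 7223 in 36S). Mast cell and basophil ones lay at 2901 to 3437 in KD, 516 to 1454 in 36N and 1711 to 2800 in 36S. Single genes of this list were split in KD over 36S. Of 6 tested, Cpa3 (2.69) and Gata2 (1.21) rose and Ms4a2 (-3.20) and Kit (-1.55) fell, with adjusted p at most 0.015 and a median of -0.25. In KD over 36N, 3 of 5 tested rose and none fell, and in 36N over 36S Kit alone of 6 fell (-1.81, adjusted p = 0.023). Monocyte and macrophage markers summed to 117607 to 168806 normalized counts in KD, 70386 to 79164 in 36N and 56187 to 62478 in 36S. Of these, 8 of 9 tested genes were higher in KD over 36S and 2 of 9 in 36N over 36S. Among all genes, 6.61% rose and 4.86% fell in KD over 36S, 2.55% rose and 2.01% fell in 36N over 36S, and 2.03% rose and 1.21% fell in KD over 36N. Neutrophil markers summed to 38619 to 52479 in KD, 49452 to 56359 in 36N and 68628 to 200937 in 36S, and 5 of 10 fell and 1 rose in KD over 36S. Of 8 B and plasma cell markers tested, 2 fell in KD over 36S, Igkc and Jchain (-2.65 each, adjusted p = 8.0e-04 and 0.0022) and over 36N (-2.24 and -2.35, adjusted p = 0.0012 and 0.0031), where these were 2 of 7 tested. Ighm, the most abundant of the list, averaged 5372 ± 415 in KD, 4885 ± 1811 in 36N and 4674 ± 738 in 36S and did not pass (0.21 over 36S, adjusted p = 0.43). Their sums lay at 6163 to 6718 in KD, 6444 to 11058 in 36N and 7715 to 12005 in 36S. T and NK cell markers, low throughout, summed to 206 to 734 in KD, 126 to 181 in 36N and 80.7 to 179 in 36S, and 4 of 7 tested rose in KD over 36S. The part of these cells in the IRF differences was not tested.

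**Figure D3:**
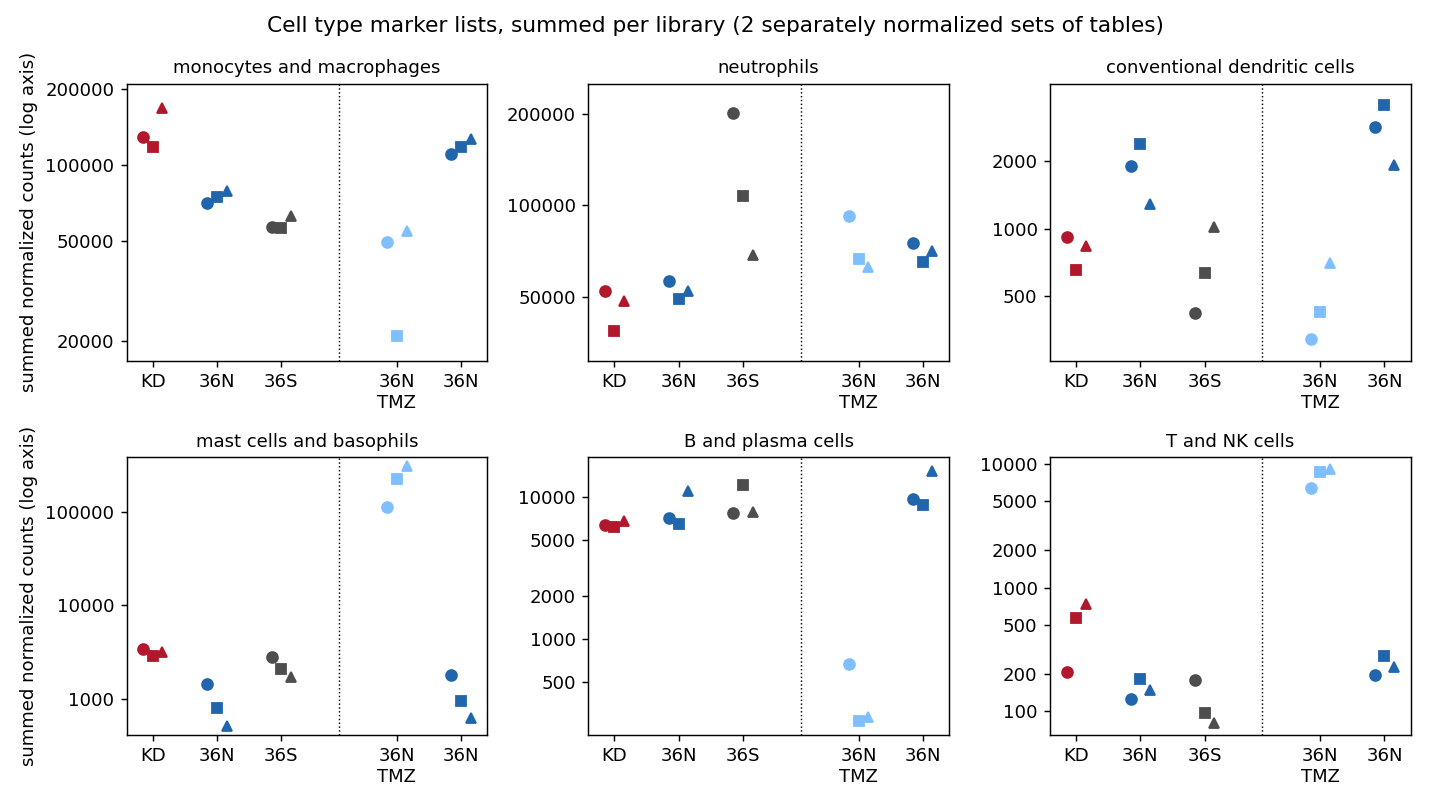
Summed normalized counts (log axis) of 6 cell type marker lists, each point a library, for untreated KD, 36N and 36S and, right of the dotted line on a separate scale, for 36N with and without temozolomide. Monocyte markers are highest in KD, and mast cell and basophil markers reach 113560 to 308464 in 36N TMZ against 627 to 1817 in 36N.

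With temozolomide the family changed in both directions in 36N cells. Irf8, Irf5 and Irf4 fell steeply, Irf2 fell by less, and Irf3 and Irf9 rose. The 6 of 8 genes called are a share close to that of all genes, since 69.7% of 14390 genes tested passed (36.3% higher, 33.5% lower), and groups did not overlap for 5 of 8 IRF genes against 74.5% of all genes. The median log2 fold change was -0.43 over the 8 genes and 0.06 over all genes. The count of calls was thus near the background, and the values of each member are described instead.

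Irf8 had 1059, 236 and 490 normalized counts in 36N TMZ libraries 4, 5 and 6, against 7013, 7160 and 6924 in untreated 36N. The untreated libraries were nearly equal, and the treated ones differed among themselves by several fold. The mean was 11.8-fold lower with temozolomide (log2 fold change -3.82, SE 0.46, adjusted p = 2.2e-04). Irf4 had 17.7, 1.30 and 4.09 in 36N TMZ, against 186, 237 and 242 in 36N, 28.9-fold lower by the means (log2 fold change -5.20, SE 0.70, adjusted p = 3.7e-04). Treated values of Irf4 were close to 0, and its log2 fold change lay between -6.02 and -4.37 over 13 alternatives, which include other pseudocounts and each library left out. Irf5 had 682, 378 and 516 in 36N TMZ, against 2140, 2323 and 2473 in 36N, 4.40-fold lower (-2.17, SE 0.21, adjusted p = 7.0e-05). In Irf8, Irf4 and Irf5 alike, library 5 was the lowest treated library and library 4 the highest, and the calls held in each of 13 alternatives, without library 5 included.

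Irf3 had 1356, 1319 and 1599 in 36N TMZ, against 622, 599 and 684 in 36N, with no overlap and 2.24-fold higher (1.16 as a log2 fold change with SE 0.13, adjusted p = 1.4e-04), in each of 13 alternatives. Irf9 had 630, 1152 and 970 in 36N TMZ, against 437, 467 and 663 in 36N, so that treated library 4 lay below untreated library 6. The rise of 0.79 (SE 0.26, adjusted p = 0.026) was lost without 36N library 4 (0.68, adjusted p = 0.087) or 5 (0.72, adjusted p = 0.082) and without 36N TMZ library 5 (0.61, adjusted p = 0.072) or 6 (0.73, adjusted p = 0.064). Irf2 had 905, 873 and 1240 in 36N TMZ, against 1245, 1528 and 1705 in 36N, where the highest treated value lay just below the lowest untreated one. Its fall of -0.58 (SE 0.18, adjusted p = 0.023) was lost without 36N library 5 (-0.55, adjusted p = 0.072) or 6 (-0.47, adjusted p = 0.078) and without 36N TMZ library 4 (-0.51, adjusted p = 0.065) or 5 (-0.48, adjusted p = 0.062). Irf7 had 149, 1383 and 331 in 36N TMZ, against 182, 176 and 377 in 36N, where the high mean came from library 5 (log2 fold change 0.83, 95% interval -0.91 to 2.57, adjusted p = 0.35; -0.05 without that library). Irf1 had 742, 385 and 742 in 36N TMZ, against 654, 740 and 780 in 36N (-0.28, 95% interval -0.89 to 0.33, adjusted p = 0.37; 0.04 without library 5).

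**Figure D4:**
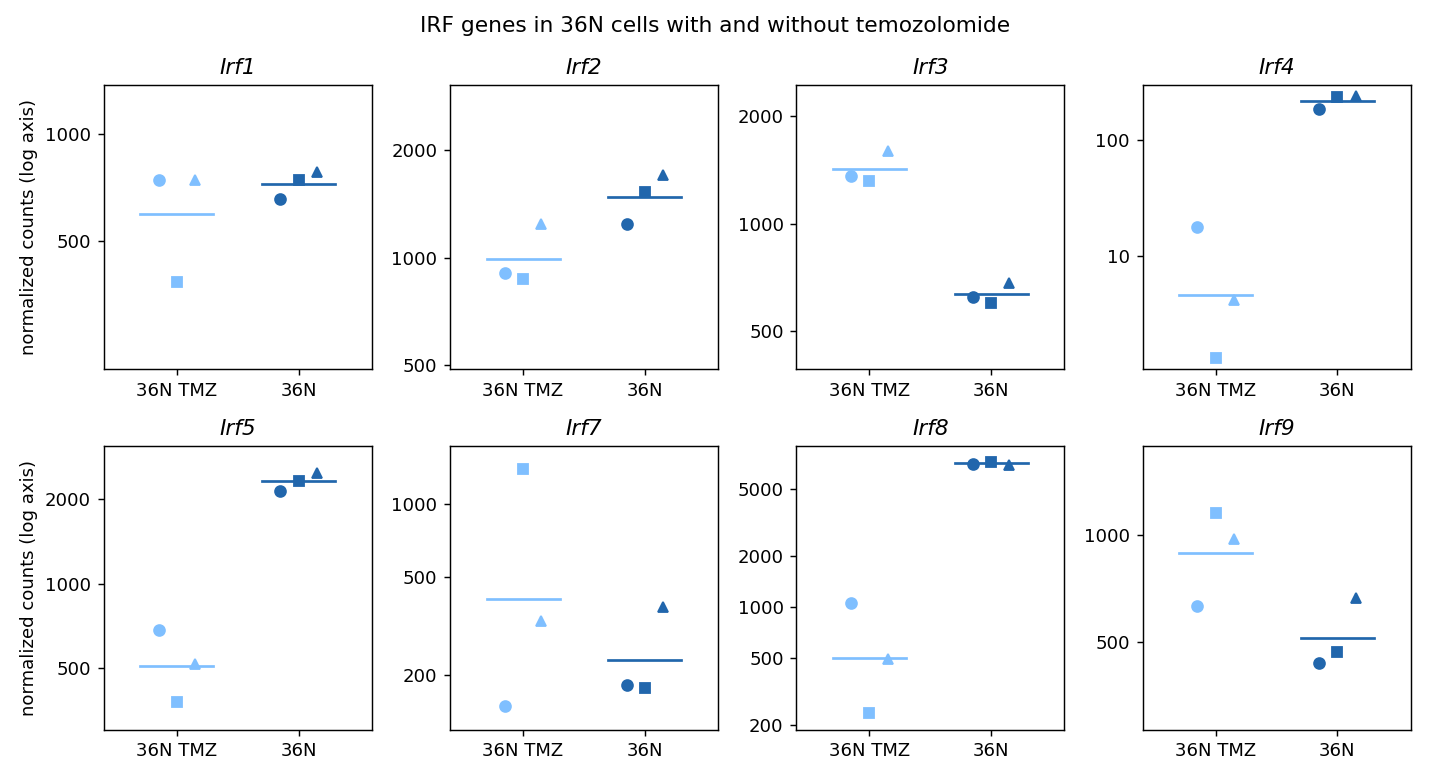
Normalized counts (log axes, each panel with its own range) of the 8 IRF genes in 36N cells with temozolomide (36N TMZ) and without (36N). Each point is a library and each line the geometric mean of 3. Irf4, Irf5 and Irf8 lie lower and Irf3 higher with temozolomide, and the square, library 5, is the highest treated library in Irf7 and the lowest in Irf8.

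Upstream and downstream genes changed in both directions as well, where 69.7% of all genes passed (36.3% higher, 33.5% lower), so that counts near these shares say nothing particular of a list. Of 16 sensors, adaptors and kinases tested, 5 rose and 8 fell with temozolomide. Tlr9, the endosomal DNA receptor upstream of Irf7, averaged 67.0 ± 38.0 in 36N TMZ and 2995 ± 528 in 36N (log2 fold change -5.59, adjusted p = 1.1e-05), whereas Tlr3, the receptor of double-stranded RNA upstream of Irf3, rose by 3.36 (adjusted p = 0.0018). Of 12 receptor and JAK-STAT genes, 3 rose and 2 fell, and the feedback inhibitor Socs1 averaged 377 ± 56.4 in 36N TMZ and 34.5 ± 6.04 in 36N (3.41, adjusted p = 1.8e-05). Of 6 ETS and BATF partners tested 4 fell and 1 rose, and Spi1 averaged 1835 ± 319 in 36N TMZ and 5852 ± 210 in 36N (-1.69, adjusted p = 3.5e-05). Of 17 ISGF3 targets 1 rose (Bst2, 1.27, adjusted p = 0.0015) and 2 fell (Mx1 and Ifit2, -1.91 and -1.37, adjusted p = 0.0029 and 0.020). Of 15 targets of Irf1 and interferon gamma 2 rose and 6 fell, among them Gbp3 (-3.54), Ciita (-3.15), the activator of MHC class II genes, and B2m (-1.96), with adjusted p at most 5.6e-04. Of 9 tested genes that depend on Irf8, 5 fell and 2 rose. Ly86, a Toll-like receptor cofactor, averaged 22.0 ± 16.3 in 36N TMZ and 3750 ± 403 in 36N (-7.78, adjusted p = 4.4e-05), Klf4 and Nf1 fell by 3.81 and 3.50 on the log2 scale, and Il18 rose by 2.75 (adjusted p = 0.020). Of 5 genes that Irf8 represses 3 rose (Ptpn13 1.94, Asah1 0.89, Bcl2l1 0.73) and Bcl2 fell by 1.86 on the log2 scale.

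Several cell type marker lists moved with temozolomide, while the summed neutrophil markers overlapped, at 62965 to 92548 in 36N TMZ and 65447 to 75238 in 36N. Single neutrophil markers did change, and of 10 tested 3 fell and 1 rose. Camp (-4.47), Elane (-3.32) and S100a8 (-2.21) fell and Ctsg (2.18) rose on the log2 scale, with adjusted p at most 0.027. All 10 mast cell and basophil markers were higher in 36N TMZ (median log2 fold change 9.93), with Fcer1a, a chain of the IgE receptor, listed at 0 in all untreated 36N libraries and at 6202 to 20376 in 36N TMZ. Plasmacytoid dendritic cell markers summed to 666 to 891 in 36N TMZ and 12719 to 17300 in 36N, and all 5 tested fell. Tcf4 and Runx2 weigh most in such a sum, at means of 4502 and 2911 in untreated KD. Ccr9 and Siglech were at 22.7 and 6.33 there. Monocyte and macrophage markers summed to 20807 to 54798 in 36N TMZ and 110958 to 127494 in 36N (3 of 10 rose and 4 fell). B and plasma cell markers summed to 268 to 666 in 36N TMZ and 8807 to 15127 in 36N. Of 6 markers of MLL-AF9 leukemia 5 fell and Mecom rose, with Flt3 at 7.37 to 31.5 in 36N TMZ and 1638 to 3347 in 36N. Erythroid and megakaryocyte markers summed to 29082 to 55781 in 36N TMZ and 28.2 to 459 in 36N, where 4 of 6 rose, Itga2b, a platelet integrin chain, the most (10.92, adjusted p = 2.3e-06), and neither hemoglobin gene passed. These libraries, labelled as leukemic marrow, thus had low levels of the leukemia markers beside high levels of mast cell and basophil ones. Of 7 T and NK cell markers tested 2 rose and 4 fell (median -3.60), with Cd3e and Gzma at 0 in all 36N TMZ libraries. Their sum of 6365 to 9040 in 36N TMZ, against 195 to 277 in 36N, came mostly from Gzmb, which encodes granzyme B (7335 ± 1249 in 36N TMZ, 16.4 ± 7.40 in 36N). The cell makeup and the drug cannot be told apart in the IRF differences.

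Among temozolomide libraries, 36N did not differ from 36S in any IRF gene past the test. None of 7 genes tested passed, none of 14246 genes did (0%), and 191 genes had an unadjusted p under 0.05, Irf2 alone of the family. Groups did not overlap for 1 of the 7 IRF genes, against 4.76% of all genes. Irf2 had 676, 646 and 907 in 36N TMZ, against 454, 436 and 638 in 36S TMZ, so that all 36N values were above all 36S values (log2 fold change 0.55, 95% interval 0.02 to 1.08, unadjusted p = 0.045, adjusted p = 1.0). Irf8 had 1504, 332 and 682 in 36N TMZ, against 1238, 292 and 427 in 36S TMZ, with each genotype spread over several fold and full overlap (0.38, 95% interval -1.15 to 1.91). Irf5 had 956, 525 and 708 in 36N TMZ, against 699, 259 and 631 in 36S TMZ (0.54, 95% interval -0.40 to 1.49). In the library pairs that deviate together (36N TMZ 4 with 36S TMZ 1, 5 with 2 and 6 with 3), Irf8, Irf5, Irf2 and Irf9 were higher in the 36N library of each pair. Irf1, Irf3, Irf4 and Irf7 changed direction between the pairs. How many of all genes kept the same direction in every pair was not counted, so these directions say nothing particular of the family. With these pairs as a block, chosen after the data were seen, the SE of Irf8 was 0.16 and that of Irf2 0.14, against 0.66 and 0.23 without the block. Neither gene passed with the block (adjusted p = 0.90 and 0.89). The intervals given for 36N TMZ over 36S TMZ come from the fit without the block, so they include the spread between pairs.

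The remaining members overlapped between the genotypes. Irf3 had 1938, 1869 and 2239 in 36N TMZ, against 1866, 1878 and 2539 in 36S TMZ (-0.04, 95% interval -0.47 to 0.38), and Irf9 had 907, 1644 and 1369 in 36N TMZ, against 870, 1445 and 1115 in 36S TMZ (0.18, 95% interval -0.46 to 0.82). Irf7 had 144, 1323 and 313 in 36N TMZ, against 203, 442 and 320 in 36S TMZ, and Irf1 had 1228, 632 and 1203 in 36N TMZ, against 1068, 803 and 1205 in 36S TMZ. The pair 36N TMZ 5 and 36S TMZ 2, which lacks Ddx3y, was highest in Irf7 and Irf9 and lowest in Irf1, Irf4, Irf5 and Irf8 within each genotype. Irf4 had 27.8, 2.02 and 6.30 in 36N TMZ, against 35.4, 3.53 and 4.57 in 36S TMZ, too low to be tested. The change of genotype difference with temozolomide, tested as an interaction over 12324 genes, passed for none of the 7 genes, where 0.333% of all genes passed (Irf8 -0.39, 95% interval -1.97 to 1.20; Irf5 -0.29, 95% interval -1.48 to 0.90). The interval for Irf8 is wider than its untreated difference of 0.77. None of the pathway lists had a member past the test between 36N TMZ and 36S TMZ, and mast cell and basophil markers summed to 166331 to 455805 in 36N TMZ and 153489 to 415344 in 36S TMZ.

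**Figure D5:**
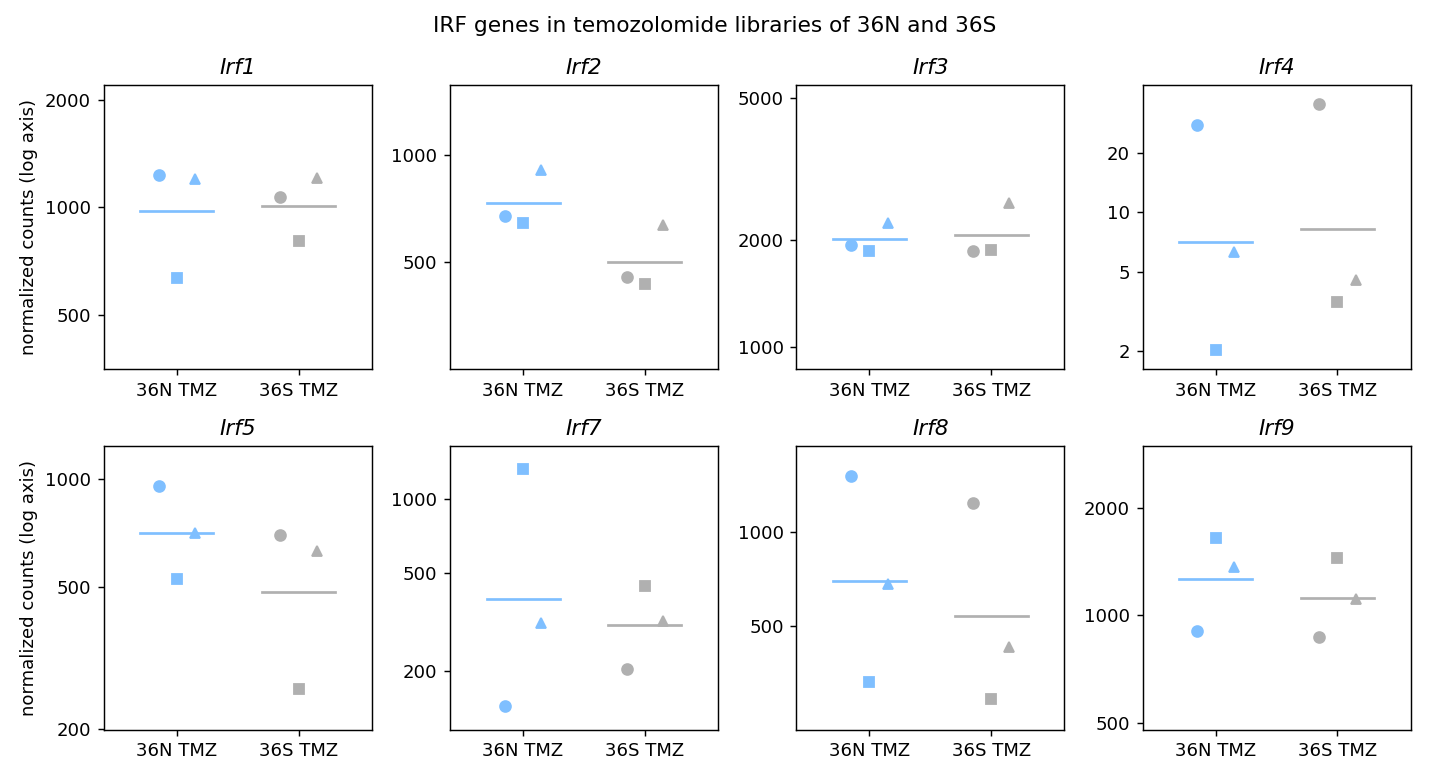
Normalized counts (log axes, each panel with its own range) of the 8 IRF genes in temozolomide libraries of 36N (36N TMZ) and 36S (36S TMZ), with each point a library and each line the geometric mean of 3. The groups overlap in 7 of 8 genes. The same marker shapes stand for the paired libraries and take like positions in both groups. These pairs were picked because they deviate together over all genes, so the like positions are no separate result.

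Levels of different genes were compared per kb of the longest coding transcript (2.031 to 4.764 kb, GENCODE M21). In all 9 untreated libraries Irf8 was the most abundant member per kb, and it made up 45.3 to 47.9% of the summed family level per kb in KD, 39.7 to 46.0% in 36N and 32.9 to 39.9% in 36S. In KD the order of mean levels per kb was Irf8 (2332), Irf5 (854), Irf2 (852), Irf3 (304), Irf1 (260), Irf7 (201), Irf9 (172) and Irf4 (11.6). In 36N it was Irf8 (1760), Irf2 (873), Irf5 (748), Irf3 (265), Irf1 (193), Irf9 (122), Irf7 (103) and Irf4 (28.7), and in 36S it was Irf8 (1041), Irf2 (737), Irf5 (450), Irf3 (267), Irf1 (172), Irf9 (108), Irf7 (91.3) and Irf4 (22.2). The ranges over libraries overlapped for Irf5 with Irf2, Irf3 with Irf1, Irf1 with Irf7 and Irf7 with Irf9 in KD, for Irf2 with Irf5 and Irf9 with Irf7 in 36N and for Irf5 with Irf3 and Irf9 with Irf7 in 36S, and in no other neighbouring pair of these orders. With temozolomide Irf3 was the most abundant member per kb in all libraries of both genotypes, and Irf8 made up 3.40 to 15.9% of the family in 36N TMZ, against 45.3 to 51.3% in 36N on the same scale. Orders of genes carry an error of the processing, since the value of 1 library differed between 2 tables by a factor that depended on the gene (0.684 to 1.76 over the 8 genes in untreated 36N). On the scale shared with 36N TMZ, the untreated 36N libraries had Irf5 (1032) above Irf2 (598) and Irf1 (339) above Irf3 (313). The order given for 36N thus reversed in these neighbours.

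For each member called in an untreated comparison, the genes with the nearest pattern over the 9 untreated libraries were ranked by the root mean square difference of centred log2 values among 10675 genes with a mean of at least 50. Irf8, whose own root mean square around its mean was 0.50, came closest to Cdc42ep3 (0.12), Ttc12 (0.13), Usp25 (0.14), Anxa6 (0.14) and Tlr2 (0.15). Tlr2, the receptor of bacterial lipoproteins, averaged 450 in KD, 358 in 36N and 208 in 36S. Irf5 (0.56) came closest to Hmox1 (0.16), which encodes the heme-degrading enzyme heme oxygenase, and to Mpeg1 (0.17), followed by D1Ertd622e, Itpripl1 and Lbh. Irf4 (0.61) came closest to C920009B18Rik (0.17), Igip, Yeats2, Rhoq and Grik5. Irf7 (0.66) had no gene nearer than Sqor (0.29), followed by Ly96, Bcl2l11, Kcne3 and Stx11. Irf9 (0.32) came closest to Vsir (0.083), Nfe2 (0.10), Vmp1, Eml2 and Rnf13. These genes were picked for their likeness, which is a description of 9 libraries.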

How the data were processed

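Messenger RNA was enriched by poly(A) selection, per the labels' protocols. The submitters' processing notes name Salmon, DESeq2 and mm10, without versions. The deposited values are signal in the form of normalized counts, made by the authors, in 4 tables. Columns headed WT in the untreated tables were matched to 36S by library number, and their values were identical in both (largest difference 0), so KD was also set against 36N. Whole reads could not be recovered, so depth is unknown.

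In all, 5 comparisons of 2 groups and an interaction were fitted with limma 3.58.1 (R 4.3.3, limma-trend, two-sided) on log2(value + 1), over genes with at least 10 in 3 libraries. P-values were adjusted over all genes tested (Benjamini-Hochberg, threshold 0.05), and fold changes on this scale understate the change of low genes. The effect of temozolomide in 36S was not tested, since no table holds both groups. Intervals are 95% intervals of the fit, not adjusted. The fits were tested on simulated data. No libraries had identical values, and 0 columns belonged to other samples.

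The 8 genes and all lists were chosen with earlier results of these data known. All members were named, with up to 4 genes per pathway list (those that changed most past the threshold, or the 2 lowest p-values) and the 5 genes nearest in pattern. Other genes, such as Stat2, Spi1, Ddx3y and Vill, were named with their values known.

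Other settings tried were a pseudocount of 0.5 or 5, no filter or a filter of 50, equal totals, quantile normalization, each library left out and, for temozolomide in 36N, the library number as a block. A block of the temozolomide library pairs, and leaving out both temozolomide libraries with no Ddx3y, were added after the data were seen. Genes were matched to GENCODE M21, and sequences come from RefSeq (GRCm38.p6).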

Additional observations from a re-analysis of the deposited data

How the results depend on the processing

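The 46 log2 fold changes of IRF genes were recomputed 623 times. The direction and the side of the threshold were kept in 550, 26 lost their call, 6 gained one and 41 changed sign, none of them a called value. Leaving out 1 library at a time gave 1 to 2 IRF genes called in 36N over 36S, 1 to 4 in KD over 36S, 0 to 3 in KD over 36N and 4 to 5 with temozolomide in 36N, and 0 between the temozolomide groups and in the interaction. Over all genes, KD over 36S gave 591 (without 36S library 2) to 2051 calls (without KD library 8), against 1503 with all libraries, 36N over 36S 188 (without 36S library 2) to 508 (without 36S library 3) against 599, and KD over 36N 116 (without KD library 9) to 1986 (without KD library 8) against 425. Equal totals moved the median of all genes to -0.13 in both KD comparisons.

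Sign changes when 1 library was left out covered these ranges. In 36N over 36S they were -0.067 to 0.027 for Irf3, -0.21 to 0.37 for Irf7 and -0.026 to 0.27 for Irf9, and in KD over 36N -0.15 to 0.072 for Irf2. With temozolomide in 36N they were -0.43 to 0.04 for Irf1 and -0.047 to 1.56 for Irf7. In 36N TMZ over 36S TMZ they were -0.21 to 0.27 for Irf1, -0.12 to 0.10 for Irf3, -0.53 to 1.07 for Irf7, -0.17 to 0.98 for Irf8 and -0.0062 to 0.42 for Irf9. In the interaction they were -0.38 to 0.10 for Irf1, -0.11 to 0.11 for Irf3, -0.74 to 0.074 for Irf5, -0.67 to 0.93 for Irf7, -0.94 to 0.22 for Irf8 and -0.16 to 0.27 for Irf9. Quantile normalization turned the interaction of Irf9 to -0.000467. Without both temozolomide libraries that lack Ddx3y, 36N TMZ over 36S TMZ came to 0.10 for Irf1 and -0.26 for Irf7, and the interaction of Irf7 to -0.41. The cause was not tested.

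With the library number as a replicate block, temozolomide in 36N called 6 IRF genes, as without it, and 9985 genes in all against 10037. Libraries of the same number correlated by 0.019, 0.037 and 0.086 in their deviations, and no pairing was drawn from the numbers. Depth is unknown, and values of Irf4 under temozolomide lie near 0, where the pseudocount sets the size of the fold change.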

Other observations

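Of the genes that encode IRF2-binding corepressors, Irf2bp2 averaged 2282 ± 525 in 36N TMZ and 12700.1 ± 858 in 36N (SD, n = 3 each, log2 fold change -2.50, limma adjusted p = 1.5e-05), and Irf2bpl averaged 653 ± 103 in 36N TMZ and 178 ± 59.5 in 36N (1.92, limma adjusted p = 5.8e-04). Neither differed past the threshold between 36N TMZ and 36S TMZ.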
